A study of Mus musculus with 16 samples.

Results

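The axon guidance ligands and receptors are the semaphorins of classes 3 to 7, their plexin and neuropilin receptors, the ephrins and Eph receptors, the Slit proteins and Robo receptors, and the netrins with their Unc5 receptors. Genes were taken by symbol from the platform annotation, and each was read from the probe set (the group of array probes that reports a transcript) with the highest mean over the 16 arrays. The rule gave 67 genes out of 18193 on the array. Of these, 22 reached a log2 level of at least 5 on at least 2 arrays and were tested within the 7823 genes that passed this filter, and 45 stayed below it. These 22 were 2 class 3 semaphorins, 1 each of classes 4, 5 and 6, 4 plexins, 2 neuropilins, 3 EphA and 1 EphB receptor, 1 ephrin-A and 2 ephrin-B ligands, 2 Robo receptors, 1 netrin and 1 Unc5 receptor.

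The arrays held RNA of hepatic stellate cells, the retinoid-storing pericytes of the liver sinusoid that turn into matrix-producing myofibroblasts after injury. All cells came from male Balb/c mice of 8 to 10 weeks, were separated by density centrifugation and were depleted, with magnetic beads, of macrophages carrying the surface protein encoded by Adgre1. Quiescent cells (5 arrays) came from normal mice and were plated for 24 h, so these controls had also spent a day on plastic. Cultured cells (3 arrays) were kept for 5 days in plastic dishes with 10% fetal bovine serum, and cocultured cells (2 arrays, numbered 2 and 3) were kept in the same way with hepatic macrophages in transwell inserts, which share medium without touching the stellate cells. Cells activated in the animal came from mice with the common bile duct ligated for 15 days (3 arrays) or from mice given the liver toxin carbon tetrachloride (CCl4) in 4 intraperitoneal injections of 0.5 µl per g (3 arrays), and were plated for 24 h afterwards. Nothing states that the arrays of a group are independent cell isolations. The tests below therefore set differences of group means only against the spread within these groups of samples, and that spread may be technical.

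Guidance proteins steer growing axons by attracting or repelling the growth cone, and the same proteins direct cell migration, vessel growth and cell contact outside the nervous system. Secreted class 3 semaphorins bind neuropilins, which signal through plexins, while membrane-bound semaphorins bind plexins directly. Ephrins are anchored to the membrane and bind Eph receptor kinases on the neighbouring cell, with ephrin-A ligands preferring EphA and ephrin-B ligands EphB receptors. Slit proteins bind Robo receptors, and netrins bind the Dcc and neogenin receptors and the Unc5 receptors. In the liver the ephrin-B2 and EphB4 pair, neuropilins and plexin D1 are best known from vessels, and neuropilins have also been studied in stellate cells.

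In these cells some guidance genes differed from quiescent cells in a single state of activation and others in several, and the plexin gene Plxna1 was lower in every activated state. In culture the EphA receptor gene Epha3 rose by 4.72 ± 0.48 on the log2 scale (± standard error, adjusted p = 3.69e-06 by limma with Benjamini-Hochberg adjustment over all 7823 genes), and the Slit receptor gene Robo2 fell by 3.90 ± 0.63 (adjusted p = 0.000206). Epha3 passed the filter on the culture arrays alone, so its being tested already required a high culture level. The netrin gene Ntn1 fell by 1.97 ± 0.24 in coculture, by 1.60 ± 0.21 after bile duct ligation and by 2.18 ± 0.21 after CCl4, and stood at 0.08 ± 0.21 in culture alone. The repellent semaphorin gene Sema3a was lower after bile duct ligation and higher after CCl4 than in quiescent cells. Of the 22 tested members 18 differed among the 5 groups in limma's F test, against 63% of all genes tested.

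The 3 members with the largest differences in culture were Epha3, Robo2 and the plexin gene Plxnd1, and a stretch around a transcript start of each is shown for orientation. Epha3 spans chr16:63543532-63864175, Robo2 chr16:73891976-75447443 and Plxnd1 chr6:115954811-115995339. The sequences run 5′ to 3′ from 250 bases before to 50 bases after a transcript start, from RefSeq on GRCm38.p6, and Robo2 has 3 listed starts of which 1 is printed. The Robo2 and Plxnd1 starts used lie inside the gene spans given above, and the Plxnd1 stretch lies wholly inside its span. Capitals mark the GC box, GGGCGG on either strand.
Epha3, chr16:63864126-63864425, minus strand: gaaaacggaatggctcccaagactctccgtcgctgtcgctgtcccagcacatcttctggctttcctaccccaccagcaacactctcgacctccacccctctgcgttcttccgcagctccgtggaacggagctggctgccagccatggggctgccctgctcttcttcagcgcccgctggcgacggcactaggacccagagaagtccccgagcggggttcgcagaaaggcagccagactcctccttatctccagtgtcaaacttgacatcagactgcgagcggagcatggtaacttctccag
Robo2, chr16:75447244-75447543, minus strand: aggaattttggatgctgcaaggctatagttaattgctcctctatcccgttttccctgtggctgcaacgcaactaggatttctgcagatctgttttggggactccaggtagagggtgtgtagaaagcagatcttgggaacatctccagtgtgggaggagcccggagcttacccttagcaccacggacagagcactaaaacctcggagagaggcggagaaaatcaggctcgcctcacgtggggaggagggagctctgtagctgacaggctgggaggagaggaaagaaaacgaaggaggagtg
Plxnd1, chr6:115994956-115995255, minus strand: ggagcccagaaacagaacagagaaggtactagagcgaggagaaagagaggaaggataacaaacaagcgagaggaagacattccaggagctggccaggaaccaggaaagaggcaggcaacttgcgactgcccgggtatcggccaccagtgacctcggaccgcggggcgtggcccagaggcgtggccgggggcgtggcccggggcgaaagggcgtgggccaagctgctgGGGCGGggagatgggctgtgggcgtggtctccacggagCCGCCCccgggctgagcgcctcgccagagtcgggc
The Plxnd1 stretch held the GC box 2 times, once on each side of the start, and the Epha3 and Robo2 stretches did not hold it. No match to the TATA box (TATAAA), the CCAAT box (CCAAT) or the AP-1 site (TGANTCA) was found in any of the 3 on either strand. Among all 32851 promoter stretches of this length, 35.7% held the GC box, 13.6% the TATA box, 37.4% the CCAAT box and 7.81% the AP-1 site. Of the 74 stretches listed for members, several of which belong to the same gene, 53 held the GC box, 2 the TATA box, 20 the CCAAT box and 3 the AP-1 site. The GC content was 60.7% for Epha3, 53.3% for Robo2 and 67.0% for Plxnd1, beside a median of 52.7% over all stretches. A match is only a run of letters and was not tested for binding. Of the 67 members, 58 were found in this table.

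Markers of stellate cells were present in all 5 groups. Of 14 stellate cell markers 13 passed the filter, among them Des, Pdgfrb and Reln, while Gfap did not. This count concerns the cell type and not the state. The summed log2 level of these 14 markers was 116.1 to 131.4 in quiescent cells and 131.8 to 141.4 in culture. It was 124.9 to 133.1 after ligation and 118.9 to 126.6 after CCl4, lowest on the first CCl4 array. In coculture replicate 2 had 116, the lowest of all 16 arrays, and replicate 3 had 131.6. The part of these sums in the results was not tested. Lrat had group means of 5.61 in quiescent cells, 9.75 in culture, 7.98 in coculture, 4.78 after ligation and 3.81 after CCl4. Acta2 and Col1a1 were lowest in quiescent cells, at 11.56 and 7.96, so Acta2 was already high there. Of 14 endothelial markers only Egfl7 and Esam passed, with Pecam1 and Cdh5 at or below 3.91 on every array, and Cd68 and Lyz2 were the only 2 of 14 macrophage markers to pass. None of 6 markers of neurons and glia or of 6 markers of T, B and NK cells passed, and of 5 cholangiocyte markers Krt19 passed, at 5.56 and 5.64 in coculture and at most 3.01 elsewhere. In the injured groups other markers moved with the state. Of 8 hepatocyte markers Alb, Ttr and Serpina1b passed. Alb lay between 7.34 and 10.79 on the 6 injury arrays and at or below 3.75 on the other 10, and Krt8, an epithelial and mesothelial keratin, lay between 5.90 and 9.56 against at most 2.24. The summed log2 level of the 8 hepatocyte markers was 12.3 to 19.1 in quiescent cells, 21.3 to 23.7 in culture, 17.6 to 18.2 in coculture, 28.2 to 32.5 after ligation and 34.2 to 51.4 after CCl4, and that of the 9 mesothelial and portal fibroblast markers 15.3 to 17.6, 16.3 to 17.7, 16.2 to 16.7, 25.6 to 30.4 and 27.5 to 38.6. Serpina1b had another order than Alb, with group means of 2.55 in quiescent cells, 10.17 in culture, 5.98 in coculture, 6.67 after ligation and 7.04 after CCl4. The summed level of the 14 macrophage markers was 26.9 to 30.3 in quiescent cells and 26.1 to 29.2 in culture. It was 33.1 to 35.4 in coculture, 32.8 to 45.1 after ligation and 33.4 to 40.1 after CCl4, while Adgre1 read at most 2.56 on every array. The third CCl4 array had the highest hepatocyte and mesothelial sums, and the second bile duct ligation array had the highest of the endothelial (42.4) and macrophage markers (45.1). Each result was also computed without these 2 arrays together, a setting chosen after the values were seen. It left 6 members called after ligation and 10 after CCl4, beside 9 and 11 with all arrays. The count over all genes in that setting is not given here. The part of other cells in these results was not tested, and in such bulk RNA a change in the number of cells of one kind and a change in RNA per cell cannot be told apart.

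**Figure D1:**
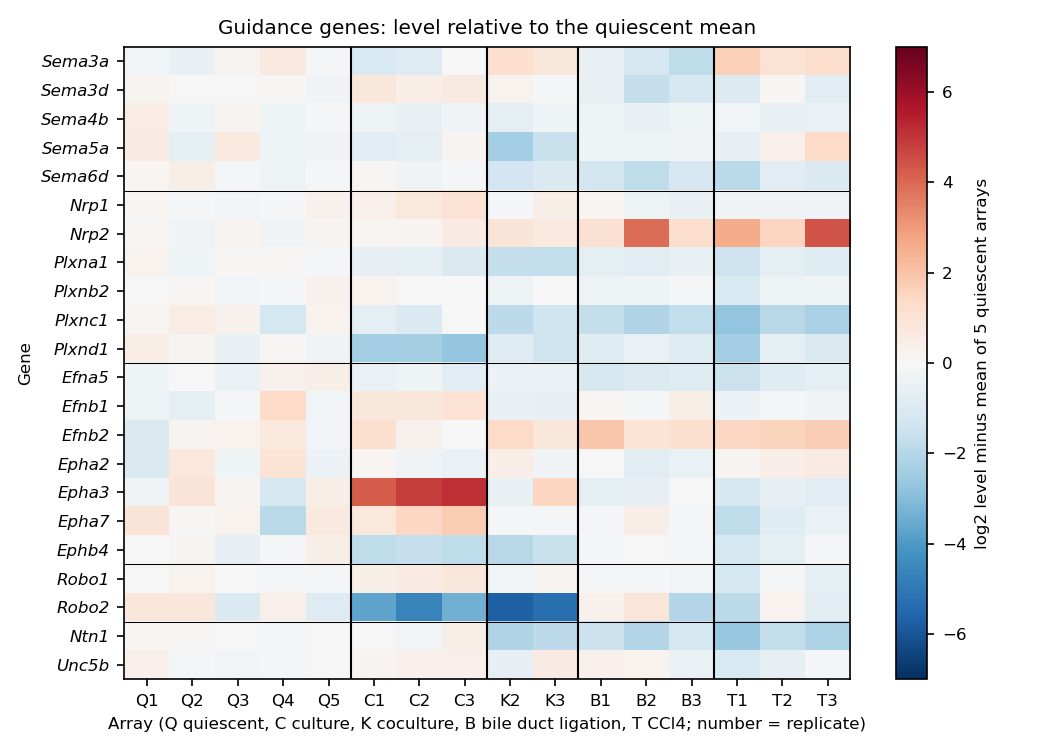
Log2 level of the 22 tested guidance genes on each of the 16 arrays (columns, grouped by state) after subtracting the gene's mean over the 5 quiescent arrays. Rows are semaphorins, neuropilins and plexins, ephrins and Eph receptors, Robo receptors, and netrin with Unc5b; the strongest red is Epha3 in the 3 culture arrays and the strongest blue is Robo2 in the culture and coculture arrays.

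The 4 comparisons with quiescent cells share the same 5 control arrays, so their values are set side by side and not counted as separate evidence. In culture 5 members were higher and 4 lower (40.9% of those tested), against 42.1% of all genes called, 18.5% higher and 23.5% lower. In coculture 2 were higher and 8 lower (45.5%), against 38.7% of all genes, 17.8% higher and 20.9% lower. After bile duct ligation 2 were higher and 7 lower (40.9%), against 16.9% of all genes, 8.03% higher and 8.83% lower. After CCl4 3 were higher and 8 lower (50%), against 22% of all genes, 9.51% higher and 12.5% lower. The median log2 difference of the members was -0.02 in culture, -0.31 in coculture, -0.35 after ligation and -0.62 after CCl4, with medians of all tested genes between -0.05 and -0.04. In culture and coculture the members' share of calls was thus close to the background.

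**Figure D2:**
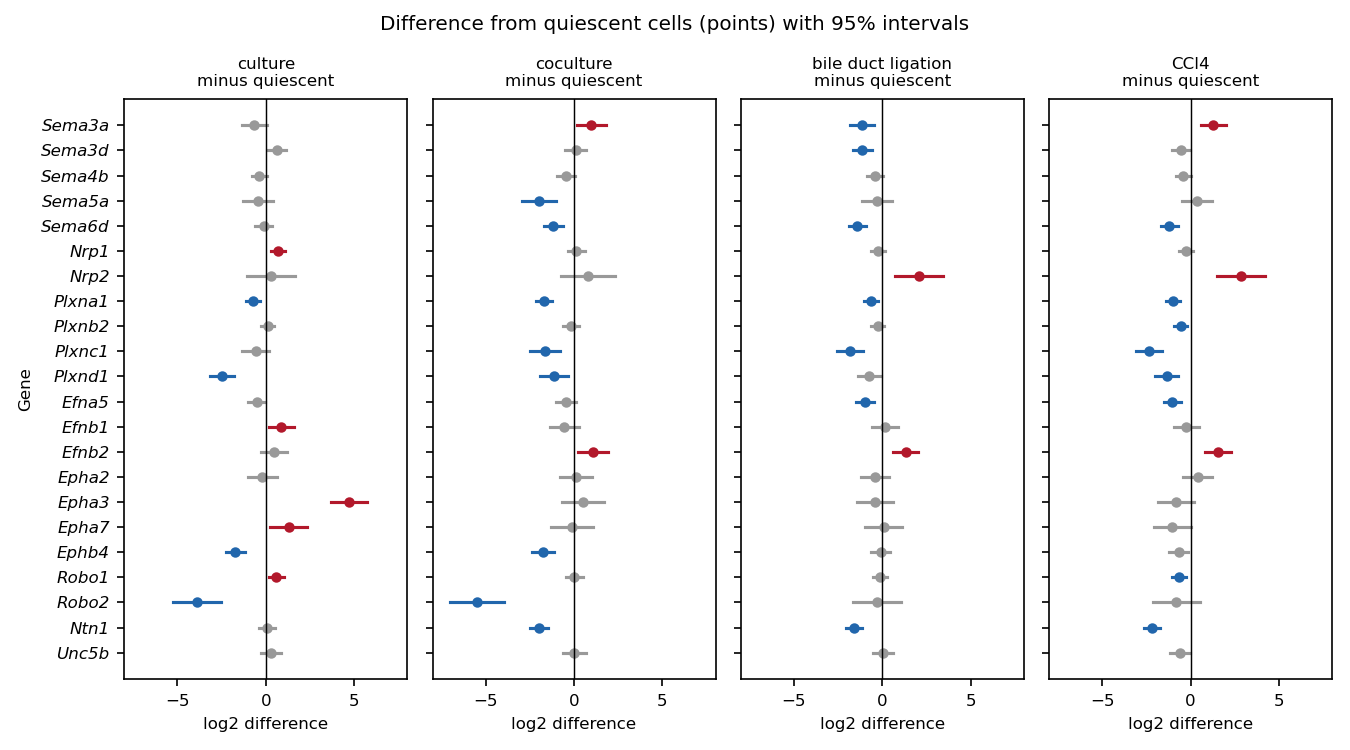
Log2 difference from quiescent cells (horizontal axis, points) with 95% intervals (lines) for the 22 tested guidance genes in the 4 activated states. Red marks genes that were higher and blue genes that were lower at an adjusted p under 0.05, and grey those that were not called. Robo2 lies far to the left in culture and coculture only, and Epha3 far to the right in culture.

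Among the semaphorins, the secreted repellents came first. Sema3a (chr5:13124822-13603485, GRCm38.p6), whose protein acts through neuropilin-1 and class A plexins, read 5.87, 5.55, 6.26, 6.77 and 5.92 on the quiescent arrays and 5.01, 5.17 and 6.09 in culture (log2 levels). It read 7.27 and 6.85 in coculture, 5.55, 4.88 and 4.32 after bile duct ligation, and 7.76, 7.06 and 7.28 after CCl4. The coculture and CCl4 arrays were all above the quiescent ones, while the highest ligation array equalled the lowest quiescent one. Against quiescent cells Sema3a rose by 1.29 ± 0.33 after CCl4 (adjusted p = 0.0108), fell by 1.16 ± 0.33 after ligation (adjusted p = 0.0231) and rose by 0.98 ± 0.37 in coculture (adjusted p = 0.0488). The culture difference of -0.65 ± 0.33 was called in 2 of the 27 alternatives, without culture replicate 3 (-0.98) and with array weights (-0.80). The CCl4 call was lost without CCl4 replicate 1 (1.10), and the ligation call without bile duct ligation replicate 2 (-1.14) or 3 (-0.86). The coculture call was lost without quiescent replicate 1, 2, 3 or 5, culture replicate 2, either coculture array, bile duct ligation replicate 2 or any CCl4 array (0.77 to 1.19), and the mean of all Sema3a probe sets gave 0.36. It was also lost with no filter, a filter at log2 7, an untrended prior variance or only the groups compared in the fit (0.98 in each). It held in 10 of the 27 alternatives.

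Sema3d, another secreted class 3 semaphorin, behaved differently from Sema3a. Its log2 levels were 9.86, 9.62, 9.70, 9.75 and 9.43 in quiescent cells, 10.44, 10.14 and 10.30 in culture, 9.94 and 9.58 in coculture, 9.17, 8.00 and 8.45 after ligation, and 8.72, 9.78 and 8.90 after CCl4. All 3 ligation arrays were below the quiescent range and all 3 culture arrays above it. The ligation decrease was 1.13 on the log2 scale (-1.13 ± 0.25, adjusted p = 0.005), and the culture difference of 0.62 ± 0.25 just missed the threshold (adjusted p = 0.0529). It was called without bile duct ligation replicate 1 or 2 or CCl4 replicate 1 or 2 (0.62). The CCl4 difference was -0.54 ± 0.25 and was called without CCl4 replicate 2 (-0.86). A second Sema3d probe set gave group means of 7.20 quiescent, 8.60 culture, 8.44 coculture, 5.91 ligation and 6.94 CCl4, so its coculture mean lay above the quiescent one where the first probe set showed 9.76 against 9.67.

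The membrane semaphorin gene Sema6d, whose protein binds plexin A1, was lower in 3 of the activated states. It read 11.55, 11.83, 11.35, 11.10 and 11.32 in quiescent cells and 11.51, 11.16 and 11.29 in culture. It read 10.08 and 10.44 in coculture, 10.12, 9.67 and 10.25 after ligation, and 9.56, 10.68 and 10.43 after CCl4. No array of these 3 states reached the quiescent or culture arrays. Sema6d fell by 1.17 ± 0.26 in coculture (adjusted p = 0.00246), by 1.41 ± 0.22 after ligation (adjusted p = 0.000469) and by 1.21 ± 0.22 after CCl4 (adjusted p = 0.00142), and its culture difference was -0.11 ± 0.22. Each of these calls held in all 27 alternatives. A second probe set read 8.06 quiescent, 8.44 culture, 7.12 coculture, 5.09 ligation and 6.67 CCl4 as group means.

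Sema5a, which carries thrombospondin repeats beside its semaphorin domain, fell in coculture. It read 3.25 and 4.05 in coculture, below every other array, against 6.18, 4.95, 6.30, 5.32 and 5.38 in quiescent cells and 4.83, 4.93 and 5.81 in culture. It read 5.34, 5.34 and 5.36 after ligation and 5.04, 5.99 and 6.97 after CCl4. The difference was -1.98 ± 0.46 (adjusted p = 0.00371), and it was not called without coculture replicate 2 (-1.58). In culture, after ligation and after CCl4 the differences were -0.44, -0.28 and 0.38, with adjusted p between 0.404 and 0.685. Sema4b, a membrane semaphorin of class 4, was called in none of the 4 comparisons, with differences of -0.37, -0.47, -0.40 and -0.40, and the widest 95% interval ran from -0.98 to 0.03 in coculture. With array weights it was called in culture (-0.52) and after CCl4 (-0.51).

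Of the semaphorin receptors, Plxna1 was lower in all 4 activated states, Plxnc1 and Plxnd1 in 3 each and Plxnb2 in 1, while Nrp1 was higher in 1 and Nrp2 in 2. Plxna1, which signals for class 3 semaphorins bound to neuropilins and for Sema6d, read 9.16, 8.56, 8.96, 8.98 and 8.78 in quiescent cells, 8.33, 8.25 and 7.86 in culture, and 7.21 and 7.19 in coculture. After ligation it read 8.25, 8.17 and 8.37 and after CCl4 7.45, 8.26 and 8.02, so every activated array was below every quiescent one. Plxna1 fell by 0.74 ± 0.18 in culture (adjusted p = 0.00425), by 1.68 ± 0.21 in coculture (adjusted p = 2.64e-05), by 0.63 ± 0.18 after ligation (adjusted p = 0.0257) and by 0.98 ± 0.18 after CCl4 (adjusted p = 0.00138). The ligation call was lost without quiescent replicate 1 (-0.56), bile duct ligation replicate 1 (-0.62) or 2 (-0.58), or without the latter and CCl4 replicate 3 together (-0.58). The culture call was lost without the set of CCl4 replicate 3, culture replicate 3 and quiescent replicate 4 (-0.57).

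Plxnc1, the plexin that binds the class 7 semaphorin Sema7a, had log2 levels of 6.71, 7.10, 6.85, 5.34 and 6.78 in quiescent cells and 5.89, 5.53 and 6.51 in culture. It read 4.70 and 5.15 in coculture, 4.87, 4.45 and 4.85 after ligation, and 3.78, 4.62 and 4.26 after CCl4. Plxnc1 fell by 1.63 ± 0.40 in coculture (adjusted p = 0.00518), by 1.84 ± 0.35 after ligation (adjusted p = 0.00197) and by 2.34 ± 0.35 after CCl4 (adjusted p = 0.000279). The coculture call was lost without coculture replicate 2 (-1.40). Quiescent replicate 4 stood more than 1 log2 unit below the other 4, and without it the culture difference of -0.58 became -0.89 and was called. None of the 6 injury arrays reached the filter level, which Plxnc1 passed on all quiescent and culture arrays and 1 coculture array.

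Plxnd1, which binds the secreted semaphorin Sema3e directly, fell furthest in culture. It read 8.88, 8.56, 7.88, 8.48 and 8.16 in quiescent cells and 6.00, 6.07 and 5.71 in culture, a decrease of 2.46 (-2.46 ± 0.31, adjusted p = 2.77e-05). In coculture it read 7.50 and 7.02 and was lower than quiescent by 1.13 on the log2 scale (-1.13 ± 0.36, adjusted p = 0.0214), a call lost without coculture replicate 3 (-0.90). After ligation it read 7.52, 7.91 and 7.55 and after CCl4 6.00, 7.72 and 7.39, with differences of -0.73 ± 0.31 (adjusted p = 0.127, called at -0.73 without CCl4 replicate 1) and -1.36 ± 0.31 (adjusted p = 0.0066). The first CCl4 array was as low as the culture arrays, and without it the CCl4 difference was -0.84 and still called.

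Plxnb2, a receptor for class 4 semaphorins, stayed between 7.68 and 9.06 on all 16 arrays. It was lower after CCl4 by 0.56 on the log2 scale (-0.56 ± 0.18, adjusted p = 0.0321), a call lost without quiescent replicate 1 (-0.57), 2 (-0.55) or 5 (-0.49) or CCl4 replicate 1 (-0.31) and with no filter or only the groups compared in the fit (-0.56 in both). The other 3 differences were between -0.26 and 0.11. The neuropilin gene Nrp1, the receptor subunit for Sema3a and a coreceptor of VEGF, rose in culture, where it read 8.31, 8.70 and 8.95 against 8.11, 7.83, 7.75, 7.81 and 8.27. This increase was 0.70 ± 0.19 (adjusted p = 0.00909) and was lost without culture replicate 3 (0.55), without the set of CCl4 replicate 3, culture replicate 3 and quiescent replicate 4 (0.52) or with the mean of all Nrp1 probe sets (0.16). In coculture and both injuries the Nrp1 differences were 0.13, -0.25 and -0.25, with 95% intervals within -0.66 and 0.60.

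Nrp2, the neuropilin best known as a coreceptor for Sema3f and VEGF-C, was near the array's floor except in injured cells. It read 1.46, 1.09, 1.57, 1.10 and 1.54 in quiescent cells, 1.51, 1.57 and 1.90 in culture and 2.26 and 2.03 in coculture. It read 2.43, 5.28 and 2.57 after ligation and 3.97, 2.85 and 5.75 after CCl4. Nrp2 passed the filter through 1 ligation array and 1 CCl4 array, so a difference from quiescent cells was built into its being tested. The log2 differences were 2.08 ± 0.63 after ligation (adjusted p = 0.0344) and 2.84 ± 0.63 after CCl4 (adjusted p = 0.00536). The 2 arrays that carried it past the filter were the second ligation array and the third CCl4 array, those with the highest marker sums of other cells given above, and without either Nrp2 was not tested. The ligation call was also lost without any 1 of the quiescent arrays (2.01 to 2.13).

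**Figure D3:**
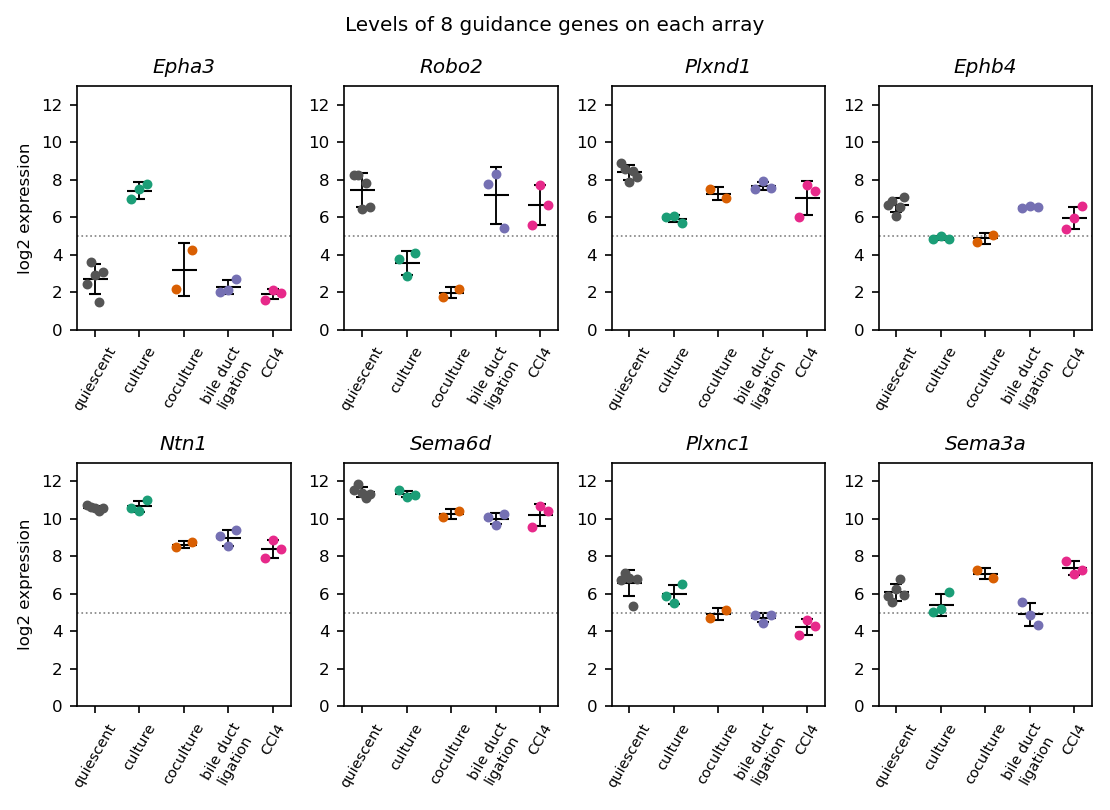
Log2 expression (vertical axis) of 8 guidance genes on each array (points) in the 5 groups, with the group mean (horizontal bar) and standard deviation (error bars); the dotted line is the filter level of 5. Epha3 reaches 6.95 to 7.80 only in culture, Robo2 reads at most 4.08 on the culture and coculture arrays, and the 3 CCl4 values of Sema3a (7.06 to 7.76) lie above its 3 ligation values (4.32 to 5.55).

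In the Eph family, Epha3 showed the widest separation. This receptor for ephrin-A ligands read 6.95, 7.53 and 7.80 in culture (mean 7.42 ± 0.44, SD, n = 3) and 2.46, 3.60, 2.91, 1.48 and 3.10 in quiescent cells. It read 2.20 and 4.23 in coculture, 2.03, 2.15 and 2.73 after ligation, and 1.61, 2.11 and 1.98 after CCl4. Only the culture arrays were above the filter level, so Epha3 was tested because it was high in culture. The fold of 26.3 in culture starts from levels near the array's floor, where it depends on the background estimate. Differences from quiescent cells were 0.51 ± 0.55 in coculture, -0.41 ± 0.48 after ligation and -0.81 ± 0.48 after CCl4, none of them called. A second probe set gave 7.04 in culture and 2.44 in quiescent cells as group means.

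Epha7, a related receptor, read 7.45, 8.15 and 8.48 in culture and 7.60, 6.82, 6.94, 4.85 and 7.39 in quiescent cells, and the groups overlapped. It read 6.66 and 6.57 in coculture, 6.56, 7.20 and 6.61 after ligation, and 4.93, 5.86 and 6.28 after CCl4. Its culture difference was 1.30 ± 0.49 (adjusted p = 0.0432), and the call was lost without quiescent replicate 2 or 3, culture replicate 2 or 3, either coculture array, bile duct ligation replicate 1 or 3 or CCl4 replicate 2 (1.08 to 1.36). Leaving out the set of CCl4 replicate 3, culture replicate 3 and quiescent replicate 4 (0.61) also ended it. So did no filter, an untrended or a robust prior variance, or only the groups compared in the fit (1.30 in each). The call held in 11 of the 27 alternatives. After CCl4 Epha7 stood at -1.03 ± 0.49, and without the low quiescent replicate 4 it was called (-1.50). A second probe set had a coculture mean of 6.13 against 4.59 in quiescent cells, where the first gave 6.61 against 6.72. Epha2, an EphA receptor of epithelia, lay between 3.83 and 5.80 on all arrays and passed the test in no comparison, with 95% intervals against quiescent cells within -1.22 and 1.21.

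Ephb4, the receptor of ephrin-B2, fell in both culture groups. Its log2 levels were 6.63, 6.85, 6.07, 6.57 and 7.07 in quiescent cells, 4.86, 5.02 and 4.85 in culture, and 4.67 and 5.08 in coculture. The log2 decreases were -1.73 ± 0.25 (adjusted p = 8.67e-05) and -1.76 ± 0.29 (adjusted p = 0.000275). After ligation Ephb4 read 6.48, 6.60 and 6.54, a difference of -0.10 ± 0.25 with a 95% interval from -0.63 to 0.43. After CCl4 it read 5.40, 5.95 and 6.58 and stood at -0.66 ± 0.25 (adjusted p = 0.0722), called without quiescent replicate 3 (-0.80) or CCl4 replicate 3 (-0.96).

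Efnb2 encodes the ligand of this receptor and was higher in coculture and both injuries. It read 5.88, 7.09, 7.16, 7.62 and 6.73 in quiescent cells, 8.00, 7.19 and 6.91 in culture, and 8.21 and 7.70 in coculture. It read 8.82, 7.83 and 7.99 after ligation and 8.35, 8.44 and 8.61 after CCl4, above every quiescent array. Efnb2 rose by 1.06 ± 0.39 in coculture (adjusted p = 0.0425), by 1.32 ± 0.34 after ligation (adjusted p = 0.0145) and by 1.57 ± 0.34 after CCl4 (adjusted p = 0.00447), and its culture difference was 0.47 ± 0.34. The ligation call was lost without bile duct ligation replicate 1 (1.01) or with the mean of probe sets (0.72). The coculture call was lost without quiescent replicate 1 or 5, culture replicate 2, either coculture array or any CCl4 array (0.80 to 1.32). It was also lost with no filter or only the groups compared in the fit (1.06 in each). A second Efnb2 probe set read 5.57 quiescent, 5.65 culture, 6.65 coculture, 6.93 ligation and 7.10 CCl4.

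Efnb1, a second ephrin-B ligand, read 5.56, 5.57 and 5.77 in culture against 4.42, 4.06, 4.60, 6.11 and 4.59 in quiescent cells. It read 4.25 and 4.18 in coculture, 4.92, 4.60 and 5.17 after ligation, and 4.37, 4.70 and 4.51 after CCl4. Its difference of 0.88 ± 0.34 lay at the threshold (adjusted p = 0.0499) and was lost without any 1 array other than quiescent replicate 4 (0.71 to 0.92). The call was also lost with no filter or only the groups compared in the fit (0.88 in each). The other 3 differences were between -0.54 and 0.14. Efna5, a ligand of EphA receptors including Epha3 and Epha7, read 6.70, 7.06, 6.55, 7.33 and 7.41 in quiescent cells, 5.88, 6.04 and 6.18 after ligation, and 5.50, 6.16 and 6.30 after CCl4. In culture it read 6.54, 6.71 and 6.20 and in coculture 6.59 and 6.53. Both injuries lay below the quiescent range, with differences of -0.98 ± 0.23 (adjusted p = 0.0077) and -1.02 ± 0.23 (adjusted p = 0.00523). In culture and coculture Efna5 stood at -0.52 ± 0.23 and -0.45 ± 0.26, and the former was called without quiescent replicate 3 (-0.64).

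Of the Slit receptors, Robo2 fell in both culture groups, where Robo1 did not. Robo2 read 8.26, 8.24, 6.46, 7.84 and 6.54 in quiescent cells, 3.76, 2.85 and 4.08 in culture, and 1.77 and 2.18 in coculture. Its decrease in coculture was 5.50 on the log2 scale (-5.50 ± 0.72, adjusted p = 4.84e-05), down to the median of all probe sets on these arrays (2.00 to 2.06). After ligation Robo2 read 7.78, 8.30 and 5.43 and after CCl4 5.61, 7.72 and 6.67, which overlapped the quiescent arrays, and the differences were -0.30 ± 0.63 and -0.80 ± 0.63. The culture and coculture calls held in all 27 alternatives. Robo1 read 7.77, 7.92 and 8.17 in culture against 7.27 to 7.58 in quiescent cells, an increase of 0.60 ± 0.20 (adjusted p = 0.0219). It read 7.16 and 7.56 in coculture and 7.22, 7.26 and 7.17 after ligation. After CCl4 it read 6.14, 7.20 and 6.74 and was lower by 0.66 on the log2 scale (-0.66 ± 0.20, adjusted p = 0.0252). The culture call was lost without culture replicate 2 (0.62) or 3 (0.49) or without the set of CCl4 replicate 3, culture replicate 3 and quiescent replicate 4 (0.48), and the CCl4 call without quiescent replicate 2 (-0.60) or CCl4 replicate 1 (-0.38) or 3 (-0.68). The CCl4 call was also lost with array weights (-0.44) or with only the groups compared in the fit (-0.66).

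Netrin-1, the secreted ligand of neogenin and the Unc5 receptors, was lower in every activated state except culture alone. Its gene Ntn1 (chr11:68209364-68386826, GRCm38.p6) read 10.72, 10.65, 10.55, 10.43 and 10.58 in quiescent cells and 10.60, 10.41 and 10.98 in culture. It read 8.48 and 8.76 in coculture, 9.06, 8.53 and 9.38 after ligation, and 7.91, 8.88 and 8.41 after CCl4. These 8 arrays were all more than 1 log2 unit below the lowest quiescent array. The adjusted p of the decreases was 2.49e-05 in coculture, 9.47e-05 after ligation and 4.41e-06 after CCl4, and all 3 held in all 27 alternatives. A second Ntn1 probe set had group means of 4.19 quiescent, 4.64 culture, 3.20 coculture, 2.56 ligation and 2.95 CCl4. Unc5b, a netrin receptor, lay between 6.42 and 8.06 and passed the test in none of these comparisons, with differences of 0.29, 0.01, 0.05 and -0.59. Its 95% interval after CCl4 ran from -1.15 to -0.02 before adjustment over all genes.

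Kupffer cells are the macrophages that live in the sinusoid, and their presence in the inserts was compared as coculture minus culture, 2 arrays against 3. Here 2 members were higher and 5 lower (31.8%), against 15.4% of all genes, 8.37% higher and 7.03% lower, and the median difference of the members was -0.55 against 0.01. Epha3 was lower in coculture by 4.21 on the log2 scale (-4.21 ± 0.60, adjusted p = 0.000284), Ntn1 by 2.04 (-2.04 ± 0.26, adjusted p = 0.000138) and Sema6d by 1.06 (-1.06 ± 0.28, adjusted p = 0.0186). Plxna1 (-0.94 ± 0.22) and Efnb1 (-1.42 ± 0.43) were also lower. Epha3 passed the filter through the culture arrays alone, so its high culture level was a condition of this test. Sema3a (1.63 ± 0.41, adjusted p = 0.0138) and Plxnd1 (1.33 ± 0.39, adjusted p = 0.0318) were higher. For Plxnd1 the culture decrease was thus smaller with Kupffer cells present. Robo2 stood at -1.59 ± 0.79 and Sema5a at -1.54 ± 0.50 (adjusted p = 0.0507), and neither was called. Sema5a was called without quiescent replicate 2, 3 or 4 or CCl4 replicate 1 or 3 (-1.54), and Epha7 (-1.41) and Plxnc1 (-1.05) without quiescent replicate 4.

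These coculture calls rest on few arrays. Leaving out culture replicate 1 left 4 members called, beside 7 with all arrays, and 967 of all genes called, beside 1205. Leaving out either coculture array left that group with 1 array. Epha3 and Ntn1 stayed called in all 27 alternatives, though for Epha3 the selection by its culture arrays limits what this shows. The call of Sema3a was lost without coculture replicate 2 (1.42), that of Sema6d without coculture replicate 2 (-0.88) or culture replicate 1 (-0.96), that of Plxna1 without either coculture array (-0.95 and -0.94), and those of Plxnd1 (1.09 to 1.57) and Efnb1 (-1.46 to -1.35) without any 1 of the 5 arrays. Averaging each gene's probe sets also ended the calls of Sema3a (0.96), Sema6d (-0.86) and Plxna1 (-0.46) here. With only the groups compared in the fit Sema3a was not called (1.63). The labels put the macrophages behind a membrane, and Adgre1 read 1.77 and 1.33 in the coculture arrays. Cd68, a lysosomal gene listed as a macrophage marker, read 7.81 and 7.82 there, 3.77, 4.88 and 2.57 in culture and 6.06 to 7.77 in quiescent cells. Cd14 had group means of 4.42 in coculture and 2.05 in culture, and Csf1r 3.33 and 3.28. The macrophage marker sum was 33.1 to 35.4 in coculture and 26.1 to 29.2 in culture, and its part in these calls was not tested.

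Bile duct ligation and CCl4 were then set against each other. limma called 13 of the 7823 genes in this comparison (0.166%), 0.0256% higher and 0.141% lower after ligation, and Sema3a was one of them, lower after ligation by 2.45 on the log2 scale (-2.45 ± 0.36, adjusted p = 0.00964). Its 3 ligation arrays (5.55, 4.88 and 4.32) were all below its 3 CCl4 arrays (7.76, 7.06 and 7.28), a 5.48-fold difference of the means. A second Sema3a probe set gave 4.19 after ligation and 6.17 after CCl4. The call was lost without bile duct ligation replicate 3 (-2.15), CCl4 replicate 1 (-2.26) or CCl4 replicate 3 (-2.50) and without the 2 arrays of high marker sums together (-2.48), and the adjusted p over all alternatives ranged from 0.000905 to 0.107. At an unadjusted limma p under 0.05, 5 members differed (Sema3a, Ntn1, Robo1, Sema3d and Unc5b). No share of all genes is given at that threshold, so this count cannot be set beside the 0.166%. Apart from Sema3a no member was called, and the next largest differences were 1.10 ± 0.55 for Epha7 and -0.81 ± 0.42 for Epha2.

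**Figure D4:**
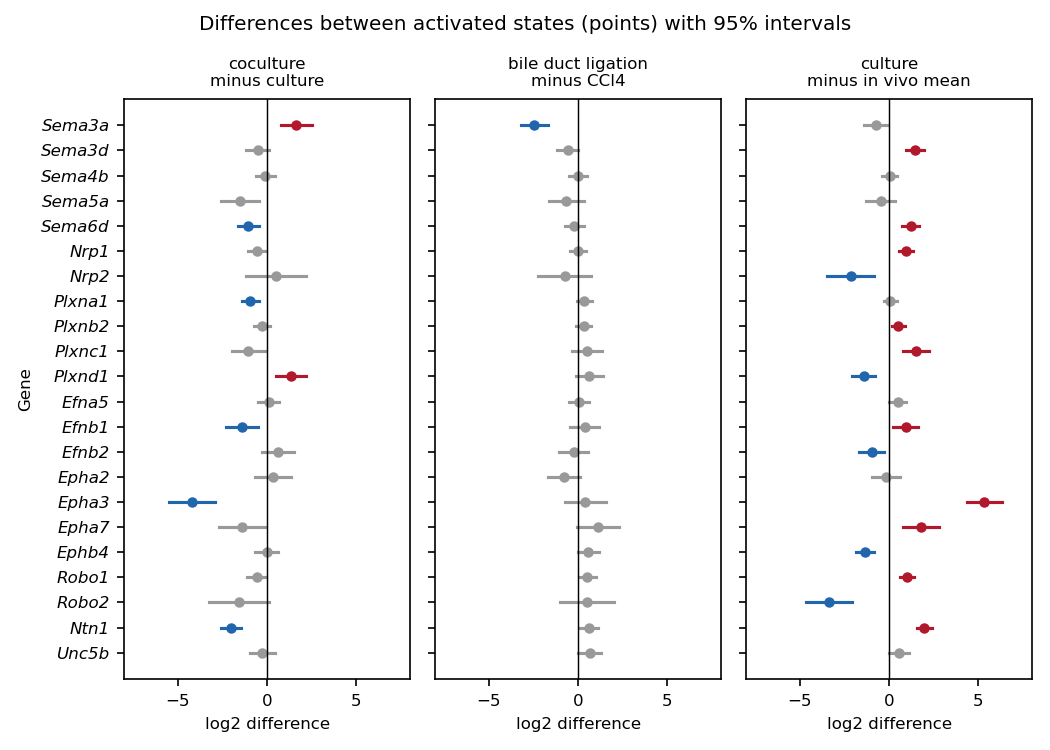
Log2 difference between activated states (horizontal axis, points) with 95% intervals (lines) for the 22 tested guidance genes: coculture against culture, ligation against CCl4, and culture against the mean of both injuries. Red marks higher, blue lower and grey not called; in the middle panel only Sema3a, at -2.45, is coloured.

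Activation in the dish was last compared with activation in the animal, as culture minus the mean of both injuries. Here 10 members were higher and 5 lower in culture (68.2%), against 50.9% of all genes, 25% higher and 25.9% lower. Epha3 was higher by 5.32 ± 0.46 (adjusted p = 6.9e-07), Ntn1 by 1.97 ± 0.20 (adjusted p = 2.65e-06), Epha7 by 1.78 ± 0.48, Plxnc1 by 1.51 ± 0.34, Sema3d by 1.46 ± 0.24 and Sema6d by 1.20 ± 0.22. Robo1 (1.00), Nrp1 (0.95), Efnb1 (0.92) and Plxnb2 (0.52) were higher by less. Robo2 was lower by 3.36 on the log2 scale (-3.36 ± 0.61, adjusted p = 0.000368), Nrp2 by 2.15 (-2.15), Plxnd1 by 1.42 (-1.42), Ephb4 by 1.35 (-1.35) and Efnb2 by 0.97 (-0.97). The filter had selected Epha3 through the culture arrays and Nrp2 through injury arrays, so for these 2 the comparison is the one that let them be tested. These groups also differ in time, 5 days in the dish against 24 h after isolation, which cannot be told apart from the source of activation. The calls of Efnb1 and Efnb2 were lost without any of several arrays, namely without each culture array, bile duct ligation replicate 2 or CCl4 replicate 1 for Efnb1 (0.85 to 0.96) and without culture replicate 2 or 3 or bile duct ligation replicate 1 for Efnb2 (-0.88 to -0.74). The call of Plxnb2 was lost without culture replicate 1 (0.46). Averaging each gene's probe sets ended the calls of Nrp1 (0.41) and Efnb2 (-0.67) here. Sema3a was called without quiescent replicate 4, culture replicate 3 or bile duct ligation replicate 3 (-1.05 to -0.72), and Unc5b without either coculture array or CCl4 replicate 3 (0.56 to 0.68).

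The 45 members below the filter include most ligands whose receptors were tested. None of the 3 Slit genes passed, although Robo1 and Robo2 did. Slit2 read 1.28 to 1.91 in quiescent cells, 2.35, 3.35 and 1.87 after ligation, and 4.70, 3.32 and 5.69 after CCl4, with the highest value on the third CCl4 array, where the summed hepatocyte and mesothelial markers were highest. Slit3 read at most 3.69, and Slit1 at most 2.66. Sema7a, the ligand of Plxnc1, read 3.75, 2.86 and 2.82 after CCl4 and at most 2.24 on all other arrays. Sema3e, the ligand of Plxnd1, read 4.92 and 2.56 in coculture, and 0.73 to 3.60 on the other arrays. The 2 coculture arrays of Sema3e stood further apart than any 2 arrays within another group.

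Among the other members under the filter, Epha4 read 4.61, 2.82, 3.97, 2.83 and 4.78 in quiescent cells and at most 3.13 elsewhere. Ntn4, a netrin of basement membranes, read 3.87, 3.36 and 4.60 in culture and 1.84 and 2.06 in coculture, and 2.84 to 4.06 in injured cells. Sema4c reached 5.24 on 1 quiescent array and lay between 3.78 and 4.90 on the rest, and Sema3f lay between 2.87 and 4.91. The vascular receptor gene Robo4 read at most 1.73. The 5 class 3 semaphorins below the filter lay between 0.73 and 4.92 over all arrays, the 5 of class 4 between 0.89 and 5.24, Sema5b between 1.32 and 2.11 and the 3 of class 6 between 1.23 and 2.71. The 5 plexins lay between 1.63 and 3.41, the 6 EphA receptors between 0.35 and 4.78, the 3 EphB receptors between 1.03 and 2.77, the 4 ephrin-A ligands between 1.36 and 3.68 and Efnb3 between 1.35 and 1.75. Robo3 and Robo4 lay between 1.12 and 2.87, the 3 netrins between 0.81 and 4.60 and the 3 Unc5 receptors between 0.83 and 3.04. None of the 45 was tested. No other probe set of the 45 genes reached the filter.

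**Figure D5:**
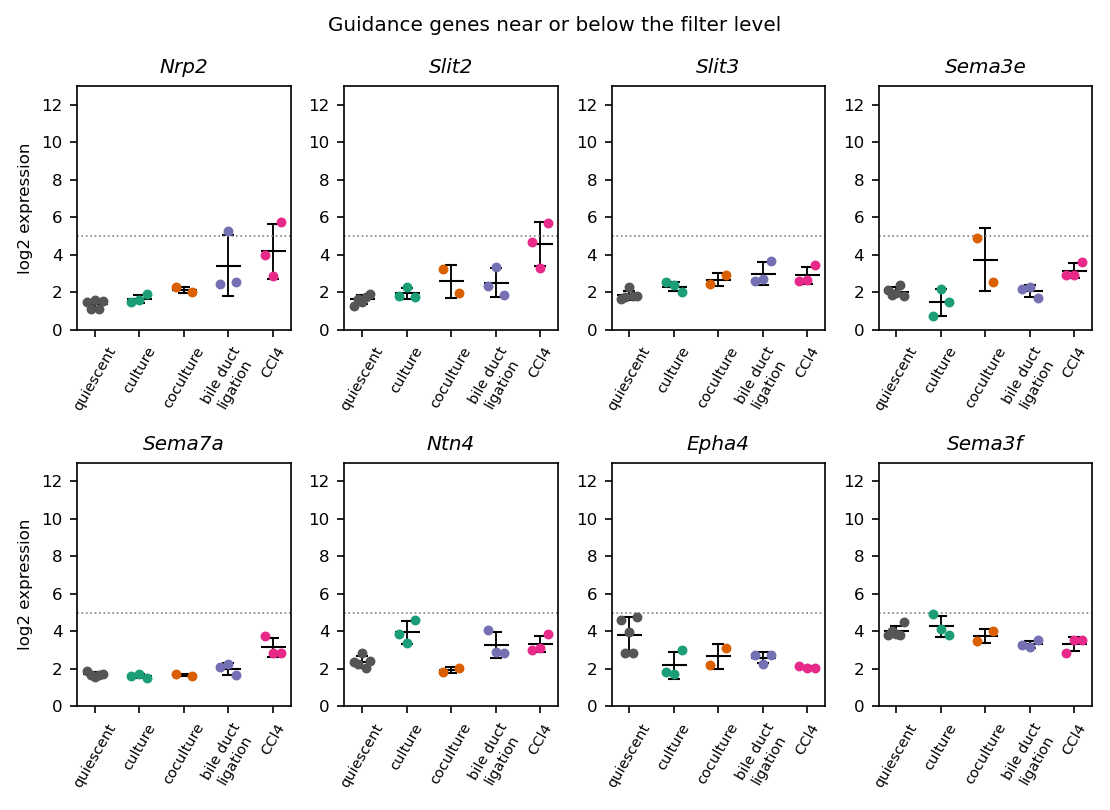
Log2 expression (vertical axis) on each array (points) of Nrp2 and 7 members that stayed below the filter, with group mean (horizontal bar) and standard deviation (error bars); the dotted line is the filter level of 5. Slit2 and Nrp2 are highest on single injury arrays, reaching 5.69 and 5.75 in CCl4 replicate 3.

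The receptors and adaptors that work with these genes were read from a list of 23 coreceptors and other ligands, of which 6 were tested. Neo1, which encodes the netrin and RGM receptor neogenin, fell by 1.36 ± 0.32 in coculture (adjusted p = 0.00379), by 1.12 ± 0.28 after ligation (adjusted p = 0.0117) and by 1.24 ± 0.28 after CCl4 (adjusted p = 0.00562). Met, the HGF receptor and a partner of class B plexins, rose by 1.37 in culture, 1.41 in coculture, 2.10 after ligation and 3.36 after CCl4, from a quiescent mean level of 2.20. It reached the filter level on the CCl4 arrays alone, so its being tested rested on that group. Plxdc2, a transmembrane protein with a plexin repeat, rose by 1.39 ± 0.25 in coculture and 1.60 ± 0.22 after ligation, and by 1.06 ± 0.28 in coculture over culture. Gpc1, a cell-surface heparan sulfate proteoglycan, rose by 1.70 after ligation and 1.16 after CCl4. Ryk, a Wnt receptor, fell by 0.82 ± 0.21 in coculture, and Lrrc4c, a receptor for netrin-G1, fell by 1.56 ± 0.33 after CCl4. In culture against the injuries, Gpc1 (-1.62), Met (-1.36) and Plxdc2 (-0.77) were lower and Lrrc4c (1.25) was higher. No gene of this list was called between the injuries. In all, 1 of the 6 was higher in culture, 2 higher and 2 lower in coculture, 3 higher and 1 lower after ligation, and 2 higher and 2 lower after CCl4. These are 16.7%, 66.7%, 66.7% and 66.7% of the 6, against 42.1%, 38.7%, 16.9% and 22% of all genes. The list's median differences were -0.01, 0.03, 0.86 and 0.26, beside medians of -0.05 to -0.04 over all genes.

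Of 52 intracellular effectors listed, 48 were on the array and 37 were tested. In culture 9 were higher and 4 lower, in coculture 7 and 10, after ligation 8 and 1, and after CCl4 9 and 5. These are 35.1%, 45.9%, 24.3% and 37.8% of the 37, against 42.1%, 38.7%, 16.9% and 22% of all genes, with median differences of -0.05, -0.21, 0.08 and 0.16. Rnd1, whose protein binds plexins, rose by 1.27 ± 0.36 in culture, by 3.32 ± 0.42 in coculture (adjusted p = 3.32e-05) and by 3.15 ± 0.36 after CCl4 (adjusted p = 2.91e-05). It was the only effector called between the injuries, lower after ligation by 2.30 on the log2 scale (-2.30 ± 0.41, adjusted p = 0.0344), as Sema3a was. Mical2, of the family of actin-oxidising enzymes downstream of plexins, rose by 2.51 ± 0.38 after ligation and 1.70 ± 0.38 after CCl4. Dpysl3, a collapsin response mediator, rose by 1.74 after ligation and 1.37 after CCl4 and fell by 1.19 in culture. Srgap3, which acts in the Slit and Robo pathway, rose by 2.38 and 2.89 after the injuries. Limk2, a kinase that inactivates cofilin, rose by 2.75 ± 0.36 in coculture and by 2.37 ± 0.40 over culture alone. Enah, an actin regulator downstream of Robo and netrin receptors, rose by 1.74 ± 0.34 after ligation and 1.96 ± 0.34 after CCl4. Mical1 rose by 1.11 ± 0.21 after ligation, and the exchange factor gene Kalrn by 1.24 ± 0.24 after CCl4.

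Some effectors reached the filter level only in the groups where they were high, so a difference was built into their being tested. These were Limk2 (the 2 coculture arrays), Ablim1 (the 3 culture arrays), Mical2 (5 of the 6 injury arrays) and Srgap3 (1 array of each injury). Farp2 was another, through 2 quiescent arrays and 1 culture array, and Rnd1 reached the filter level on no quiescent array.

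In culture the effectors with the smallest adjusted p were the small GTPase gene Rras (0.99 ± 0.16), the adaptor Nck1 (1.22 ± 0.20) and the actin-binding Ablim1 (2.30 ± 0.42), all higher, and the kinase Limk1 (-1.09 ± 0.20), lower. In coculture Nck1 rose by 1.32 ± 0.23, and Arhgef12, an exchange factor that binds class B plexins, fell by 0.82 ± 0.13. Arhgef12 (-1.01 ± 0.14) and Rras (-0.80 ± 0.20) were lower in coculture than in culture, where 2 effectors were higher and 2 lower (10.8%, against 15.4% of all genes). Against the injuries, 7 effectors were higher in culture and 7 lower (37.8%, against 50.9% of all genes). Dpysl3 (-2.75 ± 0.28), Mical2 (-2.89 ± 0.37) and the kinase Fyn (-1.42 ± 0.20) were lower there and Rras (1.10 ± 0.15) was higher.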

How the data were processed

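RNA of each of the 16 samples was hybridised to 1 Affymetrix array. The authors deposited log2 values per probe set, and the submitters' processing notes name GCRMA, a method that corrects background from probe sequence and normalises across arrays. The sources used here give neither its version nor its settings. With 2 to 5 arrays a group, their number sets the precision. Of 45101 probe sets, 34945 had 1 gene symbol, 932 had several and 9160 had none, besides 64 controls; only those with 1 symbol were used, and the probe set with the highest mean stood for its gene. All 67 members matched a RefSeq symbol. Genes at a log2 level of at least 5 on at least 2 arrays (7823 of 18193) were fitted in limma 3.58.1 (R 4.3.3) with 1 mean per group and a trended prior variance, p-values were adjusted by Benjamini-Hochberg within each comparison, and an adjusted p under 0.05 was called. The fit was tested on simulated data, with no outcome reported here, so this adds nothing to the calls above.

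The members, the lists of pathway genes and cell markers, and the tests were chosen with earlier results of these data known. Every tested member is described, with all arrays for those called with a difference of at least 1 on the log2 scale, members below the filter by the range of their family, and up to 4 genes of smallest adjusted p per pathway list and comparison. The design text gives 3 coculture samples, of which 1 is not analysed here. Alternatives changed the filter, the probe set rule, the prior variance, array weights, centring, the block and the arrays in the fit.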

Additional observations from a re-analysis of the deposited data

Results flagged for a closer look

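Each tested member's 5 quiescent values were checked for a single value far from the rest (the gap to its neighbour over the whole range, against Dixon's critical value). Among 22 such groups chance alone flags about 1 in 20. Quiescent replicate 4 stood apart for Efnb1, at 6.11 against 4.06 to 4.60 on the other arrays (gap over range 0.74), for Plxnc1, at 5.34 against 6.71 to 7.10 (0.78), and for Epha7, at 4.85 against 6.82 to 7.60 (0.71). Its summed level of the 14 stellate cell markers, 116.1, was the lowest of the quiescent arrays, and the part of this in the 3 values was not tested. Coculture replicate 2 (116) and CCl4 replicate 1 (118.9) had similarly low sums. Robo1 stood at 7.58 on quiescent replicate 2 against 7.27 to 7.31 on the others (0.85).

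Some members had differences from quiescent cells of opposite sign in 2 states, with the difference between these states called by limma. For Sema3a this was bile duct ligation against CCl4 (-2.45) and coculture against culture (1.63). For Efnb1 (-1.42) and Ntn1 (-2.04) it was coculture against culture. For Ntn1 the culture side of the pair was 0.08 from quiescent cells and not called, and of the other values against quiescent cells those of Sema3a in culture and Efnb1 in coculture were not called.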

How the results depend on the processing

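Across 27 alternatives, 4032 values of single members were recomputed: 3835 kept their call, 143 lost it, 54 gained it and none reversed with a call on either side. The calls of Epha3 in culture, Robo2 in culture and coculture, and Ntn1 in coculture and both injuries were kept in all 27. For Epha3 this is limited, because the culture arrays alone carried it past the filter. With no filter, which puts all 67 members and 18193 genes in the test, 2 members and 43 genes were called between the injuries and 24 members and 4665 genes in culture against the injuries. A filter at log2 7 left 6 called in coculture, with 2168 of all genes called, beside 3031 in the main fit. Averaging each gene's probe sets left 5 called after ligation, 7 after CCl4, 3 in coculture against culture and 9 in culture against the injuries. Among all genes averaging called 1059, 1210, 865 and 3031 in these comparisons, beside 1319, 1719, 1205 and 3984 in the main fit. Without bile duct ligation replicate 2 and CCl4 replicate 3 together, an alternative added after the data were seen, limma called 0 members between the injuries. Leaving out 1 array at a time gave 6 to 10 called members in culture, with 2571 to 3293 of all genes called. In coculture these were 8 to 10 members and 2781 to 3123 genes. After ligation they were 6 to 10 and 769 to 1429, and after CCl4 8 to 12 and 869 to 1884. In coculture against culture they were 4 to 10 and 816 to 1399, and between the injuries 0 to 1 and 3 to 20. In culture against the injuries they were 13 to 16 and 3202 to 4149. Fits that left coculture with 1 array are not in these ranges.

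Replicate numbers recur across groups, but they did not pair the arrays over the whole series: 7 of 26 same-numbered pairs deviated together with a correlation above 0.1, with a median of -0.01, and 5 of 14 arrays correlated best with their own number. The culture and coculture arrays share 2 numbers, with correlations of 0.31 and 0.54. Culture replicate 1 and coculture replicate 2, which are numbered differently, reached 0.45. With only 2 coculture arrays their deviations mirror each other, so each correlation recurs with the opposite sign, and these values cannot show a pairing. With the replicate block, 8 members were called in culture, 10 in coculture, 6 after ligation, 11 after CCl4, 10 in coculture against culture, 1 between the injuries and 15 in culture against the injuries. Among all genes the block called 2654 in culture, 2532 in coculture, 1084 after ligation and 1325 after CCl4. Without it these were 3291, 3031, 1319 and 1719. In coculture against culture, between the injuries and in culture against the injuries it called 1356, 16 and 4049, beside 1205, 13 and 3984. The block ended the ligation calls of Sema3a, Plxna1 and Nrp2, the CCl4 call of Plxnb2 and the culture calls of Robo1 and Epha7. It added calls of Plxnc1 in culture, Epha7 after CCl4, and Epha7, Plxnc1 and Sema5a in coculture against culture. Signals near the array's background limit the members below the filter and the low sides of Epha3, Robo2 and Nrp2.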
